A study of Arabidopsis thaliana with 9 samples.

Results

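Galactinol synthase joins UDP-galactose to myo-inositol, which gives galactinol, and galactinol is the galactosyl donor from which plants build raffinose and longer oligosaccharides of its family. These sugars are known as protectants and carbon stores in leaves and seeds under drought, salt, heat and cold. In Arabidopsis, GolS1 and GolS2 are known for responding to drought, salt and heat, GolS1 as a target of heat shock factors, and GolS3 for responding to cold through the CBF/DREB1 factors.

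The galactinol synthase genes described here are 5 of the 37547 genes in the deposited tables: GolS1 (AT2G47180), GolS2 (AT1G56600), GolS3 (AT1G09350), GolS4 (AT1G60470) and GolS7 (AT1G60450). They were taken by gene identifier, and the set was chosen by measured values, namely the level of GolS7 in cesium roots against its near absence in the other roots. Levels of the 5 genes in cesium roots, and of GolS7 in all roots, are therefore a description with no test. A reference table names 5 further galactinol synthase genes, GolS5, GolS6, GolS8, GolS9 and GolS10, whose values were looked at as well. For GolS8 and GolS9 these names are synonyms there, the main symbols being those of galacturonosyltransferase-like genes, GATL10 and GATL4.

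RNA came from roots of wild-type Arabidopsis thaliana, accession Col-0, in 3 groups of 3 libraries. Control plants were grown with 0.5 mM KCl, low-potassium plants with 0.025 mM KCl, and cesium plants with 0.5 mM KCl and CsCl, whose amount is labelled 0.3 with mL as its unit. All groups shared a medium with sucrose and agarose, and the sources used here do not give the age at harvest. Cesium, an alkali metal, is chemically close to potassium. The labels speak of biological replicates but not of separate cultures, so the p-values reflect only how far these libraries differ, which could be technical.

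Values are FPKM, fragments relative to transcript length and to all fragments mapped, and read totals are not given, so depth is unknown. On principal component 3 (12.2% of the variance) cesium replicate 3 lay away from its group, at 0.711 against -0.515 and -0.368. All 9 root markers reached 1 FPKM in every group, while 1 of 10 shoot and leaf markers and 0 of 6 seed markers did, with 2 to 3 of the former and 3 to 4 of the latter listed at 0 in all libraries of a group. Summed FPKM of 5 leaf photosynthesis markers ran from 322 to 421 in control, 209 to 243 in low potassium and 875 to 1516 in cesium. Summed FPKM of 4 phloem markers ran from 78.7 to 85.8, 74.3 to 105 and 106 to 152 in the same order. Those of the 10 shoot and leaf markers ran from 1.97 to 3.02, 1.80 to 2.03 and 3.75 to 4.25. A sum need not hold for each gene of its list. Among the shoot and leaf markers, ATML1 averaged 1.92, 1.06 and 2.71 FPKM, YAB3 0.115, 0.161 and 0.747, and TMM 0.321, 0.334 and 0.270. In cesium 4 of 5 leaf photosynthesis and 3 of 4 phloem markers lay wholly above control, while RCA and SEOR1 overlapped it. Of the 9 root markers, 1 lay wholly above control and 4 wholly below it in low potassium, and in cesium 2 above and 3 below. CASP1, COBL9 and EXPA7 lay below in both, and in 55.9% and 41.1% of all genes tested the groups did not overlap. The part of these tissues in the results that follow was not tested, and in bulk roots more RNA per cell and more cells of a type cannot be told apart.

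By sequence, 4 of the genes formed 2 pairs. Coding sequences of GolS2 and GolS3 were identical at 83.3% of aligned bases, and those of GolS4 and GolS7 at 83.0%, against 66.1% to 74.2% for the other 8 pairs of members. GolS7 (chr1:22271131-22273367) and GolS4 (chr1:22278975-22280593) lie on the same strand, minus, with 5607 bases between them. GolS2 (chr1:21207537-21209635) and GolS3 (chr1:3019639-3021443) lie on the plus strand of the same chromosome, and GolS1 (chr2:19368798-19370478) on the minus strand. These positions are those of RefSeq on TAIR10.1.

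For the 4 genes of these pairs, the 300 bases before the annotated start are shown, from RefSeq on TAIR10.1 and read along each gene's strand. The windows are chr1:21207237-21207536 on the plus strand for GolS2, chr1:3019339-3019638 on the plus strand for GolS3, chr1:22280594-22280893 on the minus strand for GolS4 and chr1:22273368-22273667 on the minus strand for GolS7. Capitals mark matches on either strand to a heat shock element (GAANNTTC or TTCNNGAA), to the core of the element bound by CBF/DREB factors (CCGAC, or GTCGG on the other strand) and to the core of the ABA-responsive element bound by ABF factors (ACGTG, or CACGT on the other strand).
GolS2: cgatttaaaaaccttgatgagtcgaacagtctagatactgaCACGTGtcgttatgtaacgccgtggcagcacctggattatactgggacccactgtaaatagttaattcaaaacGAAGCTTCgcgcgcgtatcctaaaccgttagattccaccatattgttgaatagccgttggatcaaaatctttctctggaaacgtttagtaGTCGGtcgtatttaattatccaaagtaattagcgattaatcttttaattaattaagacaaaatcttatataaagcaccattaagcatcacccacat
GolS3: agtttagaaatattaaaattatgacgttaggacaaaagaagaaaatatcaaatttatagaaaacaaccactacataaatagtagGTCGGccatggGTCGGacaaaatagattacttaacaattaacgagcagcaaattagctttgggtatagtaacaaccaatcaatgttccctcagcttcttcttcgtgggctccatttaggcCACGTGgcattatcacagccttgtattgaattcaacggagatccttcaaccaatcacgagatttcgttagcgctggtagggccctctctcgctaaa
GolS4: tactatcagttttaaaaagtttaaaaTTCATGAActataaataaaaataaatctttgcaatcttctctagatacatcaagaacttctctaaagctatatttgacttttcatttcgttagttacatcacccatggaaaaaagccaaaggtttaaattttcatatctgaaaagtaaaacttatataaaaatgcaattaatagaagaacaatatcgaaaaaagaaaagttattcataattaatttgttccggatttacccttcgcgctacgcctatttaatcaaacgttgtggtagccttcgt
GolS7: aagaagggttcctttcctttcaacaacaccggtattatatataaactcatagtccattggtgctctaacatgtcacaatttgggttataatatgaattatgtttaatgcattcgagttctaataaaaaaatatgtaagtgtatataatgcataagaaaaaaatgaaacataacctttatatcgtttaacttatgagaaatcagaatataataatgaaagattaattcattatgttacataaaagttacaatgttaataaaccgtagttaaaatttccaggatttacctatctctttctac

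A heat shock element stood in the windows of GolS2 (GAAGCTTC) and GolS4 (TTCATGAA), 186 and 274 bases before the start, and none in that of GolS3. GolS3 had 2 matches to the CBF/DREB core, 216 and 205 bases before the start, and GolS2 had 1, at 96 bases. CACGTG, which reads ACGTG on both strands, stood 259 bases before the start of GolS2 and 96 bases before that of GolS3. The GolS7 window held none of the 3 motifs, and the GolS4 window only the heat shock element. The window of GolS1 (chr2:19370479-19370778, minus strand) held 2 overlapping heat shock elements, TTCCAGAA and GAACTTTC, and 1 CACGTG. Among 27443 windows of the same length, 19.3% held a heat shock element, 13.9% the CBF/DREB core and 25.6% the ABA-responsive core. A match describes these letters and is not evidence that a factor binds there.

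The family was dominated by GolS1, the member with the highest level in each of the 9 libraries. GolS1 stood at 56.5, 58.1 and 88.7 FPKM in the control libraries, at 85.5, 124 and 84.1 in low potassium and at 138, 120 and 69.9 in cesium. Control replicate 3 lay above 2 of the 3 low-potassium libraries and above cesium replicate 3, so the groups overlapped in every comparison. Group means were 67.8 ± 18.2, 97.7 ± 22.4 and 109 ± 35.2 FPKM (SD, n = 3). Relative to control, GolS1 differed by 0.53 ± 0.27 in low potassium (log2 change ± SE on log2(FPKM + 1), the scale used throughout, which understates changes of low genes). This did not pass the threshold of an adjusted p of 0.05 (limma, adjusted p = 0.145), although it did when cesium replicate 3 was left out (adjusted p = 0.0489). In cesium the difference was 0.66 ± 0.27.

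GolS1 shares its locus with another gene. Its 3' end overlaps that of ARF1A1C, an ADP-ribosylation factor gene on the opposite strand, by 43 bases, and the files give both genes as a single region. ARF1A1C stood at 360 ± 25.0 FPKM in control, 302 ± 10.0 in low potassium and 358 ± 47.8 in cesium (SD, n = 3). The interval that the authors' deposited tables give around the GolS1 value of control replicate 1 ran from 0 to 131 FPKM. That of low-potassium replicate 2 ran from 16.0 to 231 FPKM. Whether the shared region widens these intervals was not tested. Libraries were strand-specific per the labels, and the sources used here do not say whether counting used it.

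GolS4 was the next most abundant member and had the largest change in low potassium among the 4 members tested. Its level was 7.64, 11.2 and 10.8 FPKM in control, 35.3, 55.2 and 35.5 in low potassium and 44.3, 37.9 and 22.8 in cesium. Every treated library lay above every control library, and the libraries of both treatments overlapped each other. Means were 9.88 ± 1.95, 42.0 ± 11.4 and 35.0 ± 11.0 FPKM (SD, n = 3), so that the low-potassium mean was 4.25 times and the cesium mean 3.54 times that of control. GolS4 rose in low potassium by 1.97 ± 0.25 (adjusted p = 0.000431), and its difference from control in cesium was 1.69 ± 0.25. Within its region, AT1G60460 overlaps the 3' end of GolS4 by 33 bases on the opposite strand and stood at 0.652 to 0.952 FPKM on average in the 3 groups.

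GolS7, neighbour of GolS4 and its closest relative among the 5 members, was listed at 0 in 5 of the 6 roots without cesium. Its values were 0, 0.0409 and 0 FPKM in control, 0 in each low-potassium library, and 27.6, 14.9 and 7.32 FPKM in cesium replicates 1, 2 and 3. All cesium libraries lay above the others, and their values spread 3.77-fold among themselves, more than those of any other member in the same group. The mean in cesium was 16.6 ± 10.2 FPKM (SD, n = 3), and the log2 difference from control was 3.94 ± 0.35 at a pseudocount of 1 FPKM and 7.02 at 0.1. That SE pools the spread of all groups, and GolS7 hardly varied outside cesium, so it understates the spread among the cesium libraries. GolS7 reached the minimum mean of 1 FPKM for the fit only through its cesium libraries. The authors' deposited table gives it a log2 fold change of 10.25 with a q of 0.343 in cesium, and lists it as not tested in low potassium. That q belongs to the value by which the set was chosen, so nothing is read from it here.

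Reads of GolS4 and GolS7 could be confused where their sequences are identical, and the longest identical run of the coding sequences was 53 bases. In low potassium, where GolS4 stood at 35.3 to 55.2 FPKM, GolS7 was listed at 0 in all 3 libraries. That absence entered the choice of GolS7. Whether reads of GolS7 were given to GolS4 in cesium, or the reverse, was not tested. The sources used here do not give the read length. The files give GolS7 a region of its own.

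GolS2 and GolS3, the other pair of close relatives, moved in opposite directions in low potassium. GolS2 had 3.16, 4.98 and 2.15 FPKM in control, 5.14, 7.40 and 5.80 in low potassium and 2.77, 2.97 and 3.99 in cesium. The low-potassium libraries all lay above those of both other groups, which overlapped. The deposited intervals were wide, at 1.68 to 8.60 FPKM in low-potassium replicate 1 and 0.696 to 5.63 in control replicate 1. GolS2 rose in low potassium by 0.72 ± 0.22 (adjusted p = 0.0302), from 3.43 ± 1.44 to 6.11 ± 1.16 FPKM (SD, n = 3). This call was lost when control replicate 1 or 3 or low-potassium replicate 2 or 3 was left out (adjusted p = 0.0651 to 0.106), and without a filter on low values (0.0549). In cesium its mean was 3.24 ± 0.654 FPKM, a difference from control of -0.024 ± 0.22 whose sign turned when single libraries were left out, and from low potassium of -0.75 ± 0.22.

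GolS3 was at 3.10, 3.78 and 4.42 FPKM in control, at 1.32, 1.51 and 1.12 in low potassium and at 0.540, 0.712 and 1.32 in cesium. Every library of either treatment lay below every control library, and both treatments overlapped each other. The authors' deposited intervals around the GolS3 values of all treated libraries reached down to 0. They ran from 0 to 1.24 FPKM in cesium replicate 1 and from 0.432 to 5.76 in control replicate 1. GolS3 fell in low potassium by 1.03 ± 0.18 on the log2 scale (adjusted p = 0.00196), from 3.77 ± 0.662 to 1.32 ± 0.194 FPKM (SD, n = 3). In cesium its mean was 0.859 ± 0.412 FPKM, with a difference from control of -1.37 ± 0.18. The authors' deposited table has GolS3 at a log2 fold change of -1.51 in low potassium (q = 0.000491) and GolS2 at 0.83 (q = 0.000921).

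**Figure D1:**
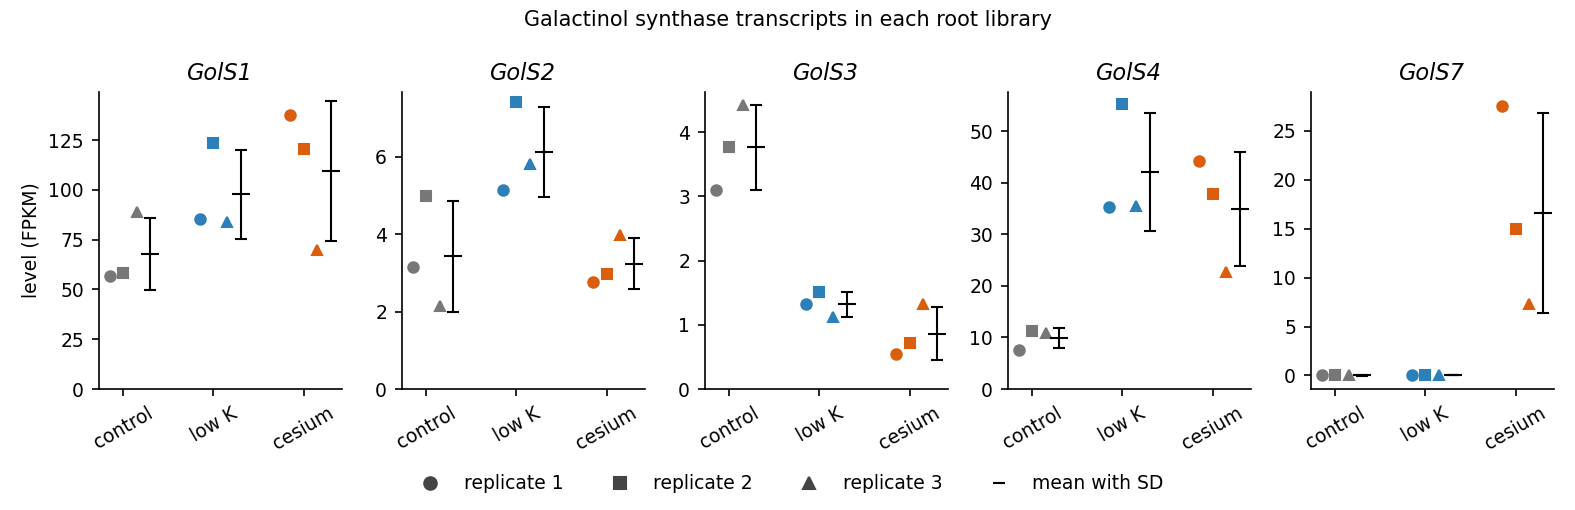
Level in FPKM of each galactinol synthase gene in each library, with 1 panel per gene and its own axis; points are libraries, marked by replicate number, and bars are the mean with SD of 3 libraries. GolS4 lies between 7.64 and 11.2 FPKM in control and between 22.8 and 55.2 in the treated roots, GolS3 is highest in control, and GolS7 is at or near 0 outside the cesium libraries.

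In low potassium, then, 2 of the 4 members tested rose, 1 fell and 1 did not pass, and 3 of the 5 members did not overlap with control. Of all 19536 genes tested, 37.6% were called in that comparison and in 55.9% the groups did not overlap. In cesium against control, 3 of the 5 members did not overlap, GolS4 and GolS7 being higher and GolS3 lower, where 41.1% of all genes did not overlap. Cesium was apart from low potassium in 2 members, GolS7 being higher and GolS2 lower, where 47.2% of all genes did not overlap. The cesium comparisons entered the choice of the members, and both treatments share the control libraries, so nothing is read from these counts.

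The makeup of the family's transcripts differed between the groups. FPKM of the 5 genes summed to 84.9 ± 18.8 in control, 147 ± 35.1 in low potassium and 165 ± 54.7 in cesium (SD, n = 3), with cesium replicate 3, at 105, lower than the highest control library at 106. GolS1 held 79.4% ± 4.68 of the sum in control, 66.5% ± 0.671 in low potassium and 66.4% ± 1.69 in cesium. GolS4 held 11.8% ± 2.24, 28.4% ± 0.892 and 21.3% ± 0.422 in the same order. These shares of GolS1 were lower, and those of GolS4 higher, in each treated library than in each control library. GolS3 went from 4.47% ± 0.340 in control to 0.911% ± 0.120 in low potassium and 0.638% ± 0.541 in cesium, and GolS7 held 9.46% ± 3.13 in cesium. The shares rest on FPKM, which are per length, and include the limits given for GolS1. The cesium sum includes GolS7, by whose level there the set was chosen. Without GolS7 that sum would be lower and the cesium shares of the other members higher, so these differences from control follow in part from the choice.

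**Figure D2:**
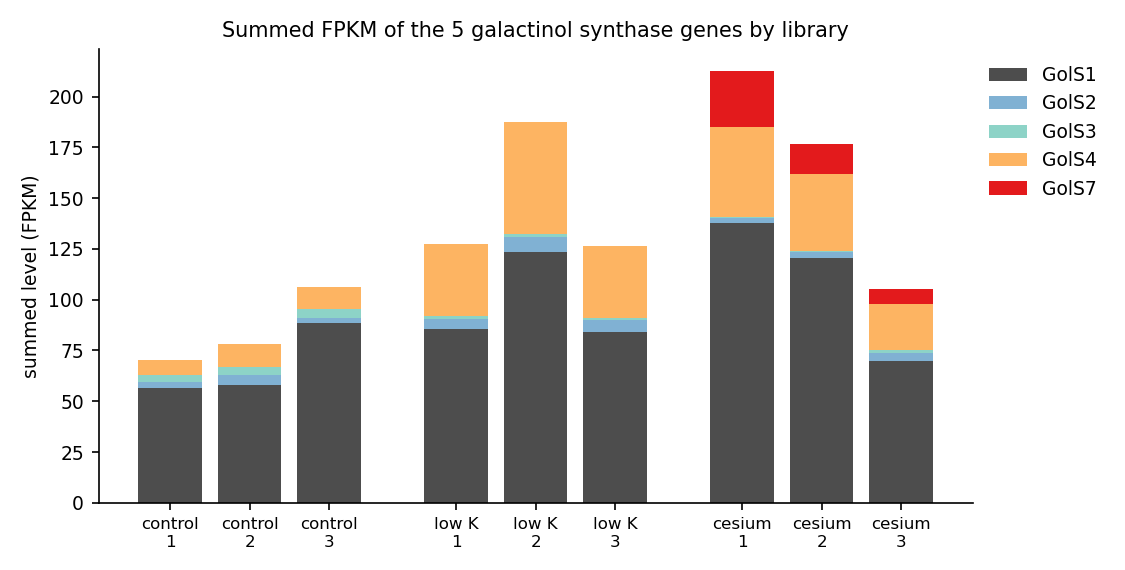
Summed level in FPKM of the 5 genes in each of the 9 libraries, stacked by gene. GolS1 makes up most of every bar, the GolS4 part is larger in low potassium and cesium than in control, and the GolS7 part, 7.32 to 27.6 FPKM, is visible in the cesium libraries.

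Within groups the members varied alike only in part. In cesium, replicate 1 was highest and replicate 3 lowest for GolS1, GolS4 and GolS7, with ratios of 1.97, 1.94 and 3.77 between them, and the order was the reverse for GolS2 and GolS3, with ratios of 1.44 and 2.45. In low potassium, replicate 2 was highest for GolS1, GolS2, GolS3 and GolS4. Despite this spread, the share of GolS4 in the family's sum kept to 20.8% to 21.6% in cesium and 27.7% to 29.4% in low potassium. Summed FPKM of all genes kept were 839316, 788434 and 714170 in cesium replicates 1, 2 and 3. In low potassium they were 832015, 844153 and 771146. The part of these sums in the order of the members was not tested.

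Of the other genes named galactinol synthase, only GolS8 (AT3G28340) reached the minimum mean of 1 FPKM. It stood at 9.11, 7.36 and 6.55 FPKM in control, at 6.18, 5.15 and 4.68 in low potassium and at 5.28, 5.76 and 5.50 in cesium, all treated libraries lying below the control libraries. GolS8 fell by 0.45 ± 0.13 on the log2 scale in low potassium (adjusted p = 0.021) and by 0.40 ± 0.13 in cesium (adjusted p = 0.046). The low-potassium call was lost without control replicate 1 or low-potassium replicate 2 or 3 (adjusted p = 0.062 to 0.0761). The cesium call was lost without any of 6 libraries, these being all but control replicate 3 and low-potassium replicates 1 and 3, or under either other filter (adjusted p = 0.054 to 0.138). GolS5 and GolS6 were listed at 0 in all 9 libraries, the region that the files give for GolS6 spanning 205 genes. GolS9 and GolS10 were listed at 0 in all but the cesium libraries, where GolS9 had 0.0904 FPKM in replicate 1 and 0.0229 in replicate 3 and GolS10 had 0.175 in replicate 2.

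Genes around galactinol metabolism were compared by the same fit, in lists of 26 genes, 21 of which were tested. These were genes of myo-inositol synthesis, UDP-galactose epimerases, the raffinose synthase family, alpha-galactosidases, and myo-inositol oxygenases and transporters. In low potassium 2 of the 21 rose, 9 fell and 10 did not pass, against 37.6% of all genes called. In cesium 6 rose, 6 fell and 9 did not pass, against 23.5% of all genes called. Median log2 changes of the lists were -0.11 and -0.080, beside 0.0019 and 0.020 for all genes tested. Without cesium replicate 3, a fit chosen after seeing the data, the counts were 3 higher and 9 lower in low potassium and 7 higher and 5 lower in cesium.

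Genes for the synthesis of myo-inositol fell or did not pass. Of 6 genes, 4 fell in low potassium and 2 in cesium, beside 37.6% and 23.5% of all genes called in either direction. MIPS3, a myo-inositol-phosphate synthase that makes the precursor of myo-inositol from glucose 6-phosphate, stood at 72.5, 67.5 and 67.1 FPKM in control, 25.5, 19.7 and 23.5 in low potassium and 47.2, 54.6 and 49.2 in cesium. The 3 groups did not overlap, with cesium between the others. MIPS3 fell by 1.56 ± 0.10 in low potassium (adjusted p = 1.1e-05) and by 0.45 ± 0.10 in cesium (adjusted p = 0.0112), and cesium was higher than low potassium by 1.11 ± 0.10 (adjusted p = 7.38e-05). MIPS1, of the same activity, fell by 0.59 ± 0.11 (adjusted p = 0.00232) and 0.53 ± 0.11 (adjusted p = 0.00597) in the same order. MIPS2 and VTC4, an inositol monophosphatase, fell in low potassium, by 0.61 ± 0.18 (adjusted p = 0.0266) and 0.60 ± 0.11 (adjusted p = 0.00228), and did not pass in cesium. The MIPS2 call was lost without low-potassium replicate 1 or 3 (adjusted p = 0.0734 and 0.086). Control replicate 3 stood at 36.4 FPKM for MIPS2 against 22.1 and 20.7 in the other control libraries, and without it the log2 change was -0.37, past the threshold as well.

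The UDP-galactose epimerases, which interconvert UDP-glucose and UDP-galactose, split. UGE1 stood at 14.5, 14.2 and 11.1 FPKM in control, 52.2, 73.8 and 45.9 in low potassium and 33.8, 24.5 and 15.9 in cesium, with no overlap between any groups. It rose by 2.01 ± 0.25 in low potassium (adjusted p = 0.000358). Its rise of 0.80 ± 0.25 in cesium (adjusted p = 0.0448) was lost in 6 of the 9 fits that left out a library, these being any control library, low-potassium replicate 1 and cesium replicates 1 and 2 (adjusted p = 0.0629 to 0.142). It was lost too without a filter on low values (0.0772) and in limma without the trend (0.0523). Between the treatments, cesium against low potassium, UGE1 differed by -1.21 ± 0.25 (adjusted p = 0.00536).

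UGE3, a low member of the epimerases, had 1.57 ± 0.555 FPKM in control, 2.84 ± 0.201 in low potassium and 5.09 ± 1.84 in cesium (SD, n = 3). It rose by 1.23 ± 0.21 in cesium (adjusted p = 0.00306), and its rise of 0.60 ± 0.21 in low potassium (adjusted p = 0.0477) was lost without any of 6 libraries (control 2 and 3, low potassium 1, 2 and 3, and cesium 2; adjusted p = 0.0601 to 0.141), without a filter on low values (0.0765) and by the authors' deposited q (0.249). UGE4 fell in both, by 0.70 ± 0.076 in low potassium (adjusted p = 0.000154) and 0.89 ± 0.076 in cesium (adjusted p = 7.87e-05). UGE5 fell by 1.12 ± 0.16 (adjusted p = 0.00103) and UGE2 by 0.48 ± 0.12 (adjusted p = 0.0185) in cesium, where each was lower than in low potassium too (adjusted p = 0.00129 and 0.0384). The UGE2 call in cesium was lost without control replicate 2 or 3 or cesium replicate 2 (adjusted p = 0.0592 to 0.0624). Its call against low potassium was lost in 8 of 16 alternatives (adjusted p = 0.0526 to 0.131), the replicate block among them (0.0698).

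Of 3 tested genes of the raffinose synthase family, which carry galactose from galactinol onto sucrose or are named for likeness to such enzymes, 3 fell in low potassium and 1 in cesium, where 37.6% and 23.5% of all genes were called. RS5, the raffinose synthase known for stress responses, stood at 23.5, 29.5 and 32.5 FPKM in control, 16.4, 14.4 and 12.1 in low potassium and 19.5, 21.8 and 17.0 in cesium. All treated libraries lay below those of control. RS5 fell by 0.95 ± 0.15 in low potassium (adjusted p = 0.00108) and by 0.52 ± 0.15 in cesium (adjusted p = 0.0272). The latter call was lost without control replicate 2 or 3 or cesium replicate 1 or 3 (adjusted p = 0.0613 to 0.101).

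RS2 and RS6 differed between the treatments. RS2, reported to act on raffinose as an alpha-galactosidase, stood at 90.9, 101 and 148 FPKM in control, 53.4, 56.5 and 50.4 in low potassium and 113, 124 and 101 in cesium. Only the low-potassium libraries were apart from the rest. RS2 fell by 1.04 ± 0.16 in low potassium (adjusted p = 0.00122), differed by 0.023 ± 0.16 in cesium (adjusted p = 0.933), and was higher in cesium than in low potassium by 1.06 ± 0.16 (adjusted p = 0.00113). RS6 fell by 0.57 ± 0.17 in low potassium (adjusted p = 0.0285), a call lost without control replicate 3 or low-potassium replicate 3 (adjusted p = 0.0972 and 0.102), and was higher in cesium than in low potassium by 0.91 ± 0.17 (adjusted p = 0.00353). Against control, RS6 in cesium differed by 0.34 ± 0.17 (adjusted p = 0.18), which passed without cesium replicate 3 (adjusted p = 0.0425) and by the authors' deposited q (0.0352).

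RS4, the stachyose synthase of the family, had a mean under 1 FPKM over the 9 libraries and was left out by the filter. Its libraries stood at 1.59, 1.74 and 1.66 FPKM in control, 0.320, 0.409 and 0.488 in low potassium and 0.0165, 0.220 and 0.117 in cesium. No groups overlapped, and control was highest. In the fit without a filter on low values RS4 fell by 0.92 ± 0.077 in low potassium (adjusted p = 0.000201) and by 1.26 ± 0.077 in cesium (adjusted p = 0.000107).

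Among enzymes of breakdown, 2 of 3 alpha-galactosidases, which release galactose from raffinose and other galactosides, rose in cesium and 0 of 3 passed in low potassium, where 23.5% and 37.6% of all genes were called. AGAL1 stood at 10.3, 9.50 and 7.97 FPKM in control, 8.41, 9.42 and 8.86 in low potassium and 20.1, 13.7 and 14.8 in cesium, the cesium libraries alone being apart. It rose by 0.73 ± 0.14 in cesium (adjusted p = 0.00527) and AGAL2 by 0.58 ± 0.14 (adjusted p = 0.0149), the latter call being lost without control replicate 1 (adjusted p = 0.053). Both were higher in cesium than in low potassium, by 0.78 ± 0.14 (adjusted p = 0.00268) and 0.67 ± 0.14 (adjusted p = 0.0055). AGAL3 differed by 0.16 ± 0.11 in low potassium (adjusted p = 0.291) and AGAL2 by -0.088 ± 0.14 (adjusted p = 0.647).

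Of the myo-inositol oxygenases and transporters, 4 of 8 were tested, of which 1 passed in low potassium and 2 in cesium, beside the same shares of all genes. MIOX2, which oxidises myo-inositol to glucuronic acid, fell by 1.14 ± 0.19 in low potassium (adjusted p = 0.00185), from 34.9 ± 10.3 to 15.0 ± 1.78 FPKM (SD, n = 3). MIOX1, of the same activity, rose by 0.72 ± 0.21 in cesium (adjusted p = 0.0304), and INT4, a myo-inositol importer of the plasma membrane, by 0.53 ± 0.12 (adjusted p = 0.0108). The MIOX1 call was lost without any control library or cesium replicate 1 (adjusted p = 0.0714 to 0.0867), with the replicate number as a block (0.0567) and without a filter on low values (0.0549).

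Setting both treatments beside each other, 10 of the 21 genes were higher and 3 lower in cesium than in low potassium, where 34.2% of all genes were called. The higher ones included MIPS3, RS2, RS6, AGAL1, AGAL2, MIOX1 and MIOX2, and the lower ones were UGE1, UGE2 and UGE5. The other 3 higher genes were VTC4, RS5 and UGE3, whose calls were lost in 7 of 16, 8 of 16 and 9 of 15 alternatives, with adjusted p up to 0.117, 0.151 and 0.12. With the replicate block the calls of VTC4 (adjusted p = 0.0614) and RS5 (0.0692) were lost. Without cesium replicate 1 the difference of UGE3 went from 0.63 to 0.39, and without low-potassium replicate 1 the call of MIOX1 was lost (adjusted p = 0.0665).

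**Figure D3:**
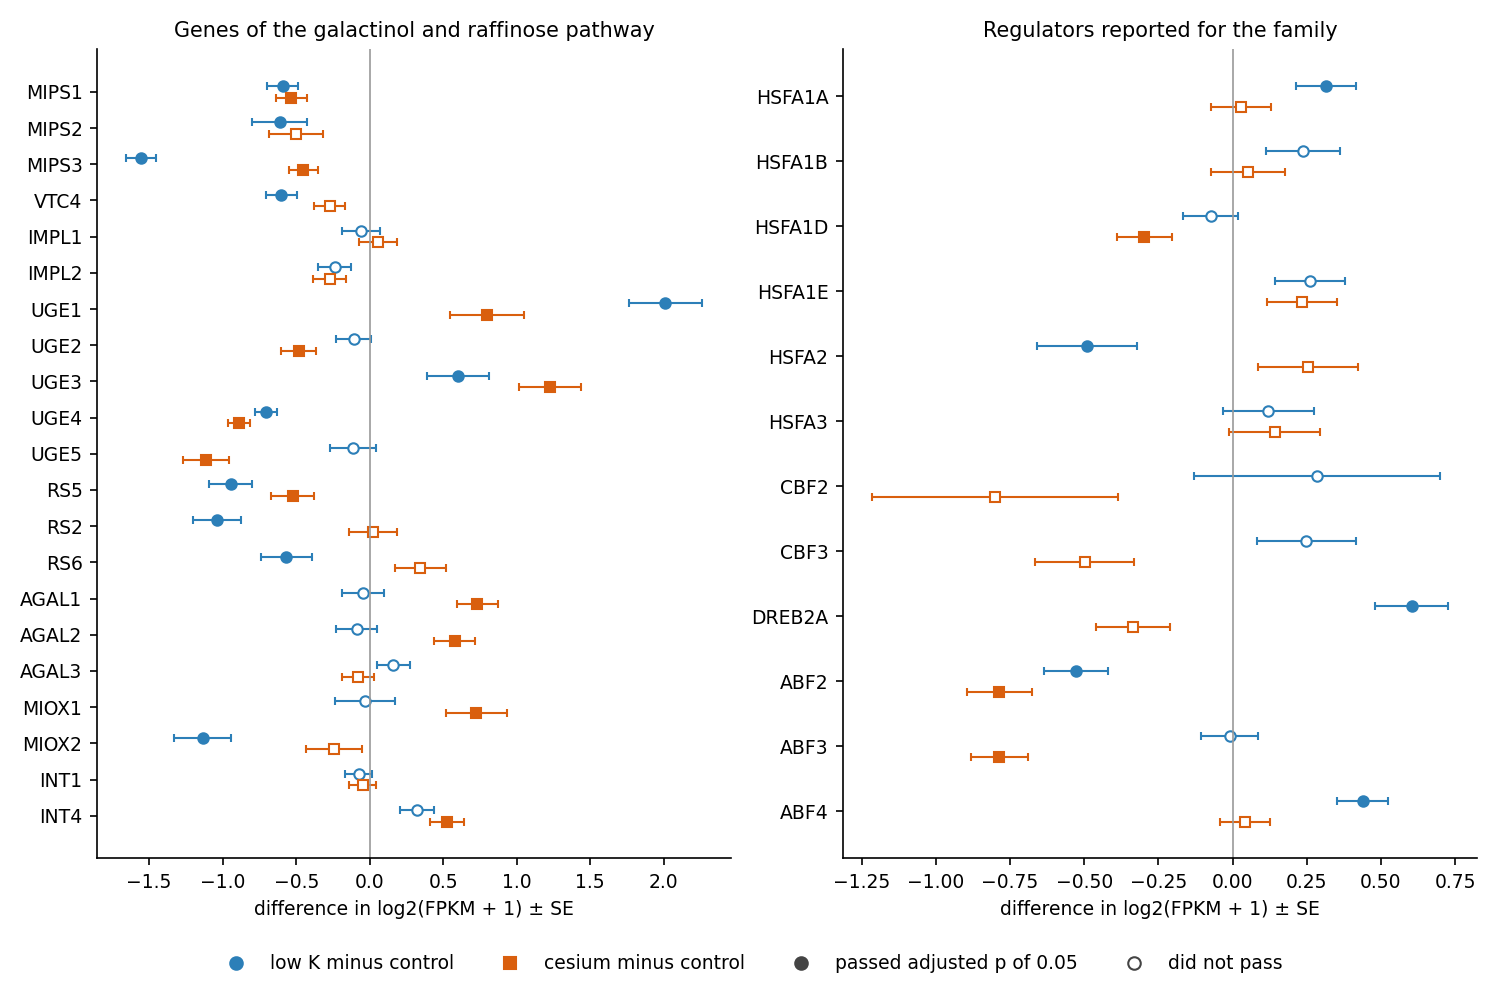
Difference from control in log2(FPKM + 1), with SE from the fit over 9 libraries, of 21 tested pathway genes (left) and 12 tested regulators (right), circles for low potassium and squares for cesium; filled points passed an adjusted p of 0.05. UGE1 is farthest to the right at 2.01 in low potassium and MIPS3 farthest to the left at -1.56, and ABF2 and ABF3 are both at -0.79 in cesium.

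Regulators reported for galactinol synthase genes were heat shock factors, CBF/DREB factors and ABF factors, 12 of 13 being tested. In low potassium 3 rose, 2 fell and 7 did not pass, and in cesium 0 rose, 3 fell and 9 did not pass. These counts lie near the 37.6% and 23.5% of all genes called. Between the treatments, 1 was higher and 4 lower in cesium than in low potassium, where 34.2% of all genes were called. DREB2A, a factor of drought and heat responses, rose by 0.60 ± 0.12 in low potassium (adjusted p = 0.00484), and in cesium it was lower than there by a log2 difference of -0.94 ± 0.12 (adjusted p = 0.000499). ABF4, a factor of the ABA response, rose by 0.44 ± 0.085 in low potassium (adjusted p = 0.00368). The rise of HSFA1A by 0.32 ± 0.10 (adjusted p = 0.0338) was lost without control replicate 2 or any low-potassium library (adjusted p = 0.0567 to 0.123) and by the authors' deposited q (0.0957).

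ABF3 and ABF2, further factors of the ABA response, had lower levels in cesium. ABF3 stood at 96.9, 109 and 99.4 FPKM in control, 89.4, 111 and 105 in low potassium and 55.0, 59.4 and 61.5 in cesium, so cesium alone was apart. It fell in cesium by 0.79 ± 0.096 (adjusted p = 0.000491). Against low potassium, ABF3 in cesium differed by -0.78 ± 0.096 (adjusted p = 0.000352) and ABF4 by -0.40 ± 0.085 (adjusted p = 0.00643). ABF2 fell by 0.79 ± 0.11 in cesium (adjusted p = 0.000942) and 0.53 ± 0.11 in low potassium (adjusted p = 0.00493). HSFA1D fell in cesium by 0.30 ± 0.092 (adjusted p = 0.0426), a call lost in 7 of the 9 fits that left out a library and in 4 other fits (adjusted p = 0.0501 to 0.134).

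HSFA2, a heat shock factor that is itself induced by heat, had 2.43 ± 0.488 FPKM in control, 1.44 ± 0.311 in low potassium and 3.10 ± 0.669 in cesium (SD, n = 3). It fell by 0.49 ± 0.17 in low potassium (adjusted p = 0.0453), a call lost without control replicate 1 or 2, low-potassium replicate 2 or 3, or cesium replicate 1 or 2 (adjusted p = 0.05 to 0.137), and without a filter on low values (0.0604). In cesium it was higher than in low potassium by 0.74 ± 0.17 (adjusted p = 0.00838). CBF3, a factor of the cold response that activates GolS3 in Arabidopsis, was lower in cesium than in low potassium by a log2 difference of -0.75 ± 0.17 (adjusted p = 0.00741), and did not pass against control (0.25 ± 0.17 in low potassium, adjusted p = 0.263, and -0.50 ± 0.17 in cesium, adjusted p = 0.0551).

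The genes most like each member across the 9 libraries were found by the root mean square difference of log2(FPKM + 1) values, each centred on the gene's own mean. For GolS4, whose own values spread by 0.924 about their mean, they were HSP17.4, a small heat shock protein, at 0.216, the nitrilase NIT2 at 0.226 and AT3G18773, a RING/U-box protein, at 0.227. HSP17.4 had 5.32 ± 0.365 FPKM in control, 19.3 ± 5.64 in low potassium and 18.3 ± 2.42 in cesium (SD, n = 3). For GolS7, with a spread of 1.91, they were AT4G12545, of the lipid-transfer protein family, at 0.293, the methyltransferase AT5G38100 at 0.329 and the jasmonate-regulated gene JRG21 at 0.336. JRG21 had 0.599 ± 0.288 FPKM in control, 0.667 ± 0.293 in low potassium and 18.2 ± 10.2 in cesium, and AT4G12545 had 173 ± 12.6, 156 ± 20.6 and 2155 ± 675.

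For GolS1 (spread 0.435) the nearest were CDSP32, a drought-induced chloroplast thioredoxin, at 0.152, AT5G57345 at 0.175 and PYK10, a root beta-glucosidase, at 0.175. For GolS2 (spread 0.435) they were CYP709B2 at 0.147, AT5G64250 at 0.168 and AT1G53560 at 0.169, and for GolS3 (spread 0.612) the laccase LAC13 at 0.108, the acyl-CoA synthetase LACS2 at 0.127 and AT2G25150 at 0.129. No test was made of these, since the genes were picked for their likeness.

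**Figure D4:**
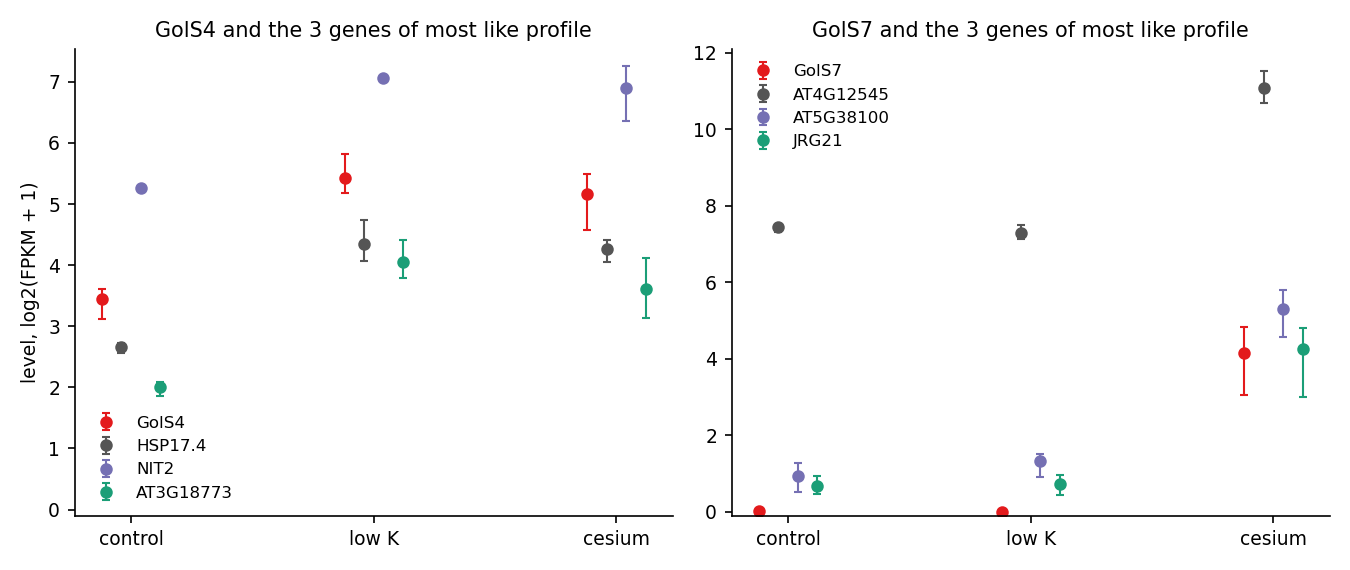
Level as log2(FPKM + 1) of the group mean, with bars from the lowest to the highest of 3 libraries, for GolS4 (left) and GolS7 (right) and the 3 genes of most like profile for each. GolS4 and its companions are higher in both treatments than in control, HSP17.4 going from 5.32 to 19.3 and 18.3 FPKM, while GolS7 and its companions are higher in cesium alone, JRG21 at 18.2 FPKM there.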

How the data were processed

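Root RNA of 9 libraries was sequenced after Trizol extraction and strand-specific library construction, per the labels' protocols. Cufflinks 2.2.1, Bowtie2 2.3.4.1, STAR 2.5.0c and TAIR10 appear in the submitters' processing notes, without roles. The authors deposited FPKM per gene and library, and tables of each treatment against control with log2 fold changes, p-values and q-values. The sources used here give neither the authors' test nor the scaling of FPKM between libraries.

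Members and lists were chosen with earlier results of these data known. Of 37547 genes, 5 with a failed status were dropped, and 19536 averaging 1 FPKM or more were tested on log2(FPKM + 1) with limma 3.58.1 (R 4.3.3; intensity trend, a one-way model of 9 libraries), p-values being adjusted by Benjamini-Hochberg within each comparison, with 0.05 as threshold. No count model was used on FPKM. The fit was tested on simulated data. A listed pathway gene is not reported here and is left out of the counts of its list. Named were all galactinol synthase genes, every list gene that passed (otherwise up to 2 with the smallest adjusted p), and 3 genes of like profile per member. RefSeq (TAIR10.1) gave starts and sequences. Names are its symbols or synonyms (main symbols SIP1 for RS5, SIP2 for RS2, DIN10 for RS6, STS for RS4, RHD1 for UGE4, HSF1 for HSFA1A, HSF3 for HSFA1B and DREB1A for CBF3), except AGAL3 (AT3G56310), which has none there; 27464 of 37040 matched genes had its region in the files, the others spanning neighbours. Of the listed pathway genes MIPS2, MIPS3, UGE1, UGE3, RS6, AGAL2, AGAL3, HSFA1B, HSFA3, CBF3, DREB2A, ABF3, ABF4 and GolS8 are among those whose region is shared. Alternatives were pseudocounts of 0.1 and 0.5, no filter, a filter of 5 FPKM, median-ratio scaling, a replicate block, no trend, omission of each library and the authors' q-values. Python 3.11.15, pandas 2.3.3 and Biopython 1.88 were used.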

Additional observations from a re-analysis of the deposited data

How the results depend on the processing

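Counts of genes called were 7340 in low potassium against control, 4591 in cesium against control and 6677 in cesium against low potassium, and stayed within 1.5 times of these under the alternatives run, except in cesium against control without control replicate 2 (2907) or 3 (3023). Leaving out each library gave 2907 to 4830 genes there, 5339 to 8688 and 4841 to 6614 in the others. With the replicate block the counts were 6729, 4154 and 6095. Same-numbered libraries deviated together by correlations of -0.12 to 0.282, not all over 0.1. Those of replicate 2 ran from 0.0972 to 0.179, and the highest was replicate 3 of low potassium and cesium. The labels give a shared number only, and a shared batch was not tested. Of 71 single-gene results, 40 changed under no alternative, and 19 lost their call and 3 gained one under some alternative. Under other pseudocounts or the authors' values, 5 descriptions of members moved by over 1 SD. They were GolS3 in both cesium comparisons and GolS7 in all 3 comparisons. The other 4 results turned sign, all when a library was left out. These were GolS2 in cesium against control (-0.25 to 0.22, at 0.056 without cesium replicate 1 and 0.018 without cesium replicate 2), GolS1 in cesium against low potassium (-0.067 to 0.42), GolS8 in cesium against low potassium (-0.030 to 0.14) and AGAL2 in low potassium against control (-0.20 to 0.042). GolS3 and GolS4 kept their calls in low potassium under every alternative run, the filter of 5 FPKM leaving GolS3 out. The pseudocount sets the log2 difference of GolS7 in cesium against control (7.02 at 0.1, 4.87 at 0.5) and moves that of GolS3 (-2.08 at 0.1). Depth is unknown, so counting error at low FPKM was not worked out. The deposited intervals, which are wide for GolS2 and GolS3, are the only guide to it.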
